A study of Mus musculus with 6 samples.

Results

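Fc receptors and their closest structural or functional relatives were compared between MHCII-high CX3CR1- and MHCII-high CX3CR1+ cells of the small bowel muscularis externa (ME), the smooth muscle layer of the gut wall that also holds resident macrophages. The set was chosen by name and comprised 10 of the 26110 genes listed: the IgG receptors Fcgr1, Fcgr2b, Fcgr3 and Fcgr4, the shared signalling chain Fcer1g, the low-affinity IgE receptor Fcer2a, the neonatal Fc receptor Fcgrt, the Fc receptor-like gene Fcrls, the paired immunoglobulin-like receptor Pirb and the polymeric immunoglobulin receptor Pigr. All 10 passed the filter on low values. RNA was sequenced in bulk from 3 CX3CR1- and 3 CX3CR1+ libraries. Both populations came from untreated mice with the genotype CX3CR1+/GFP, in which GFP replaces 1 copy of Cx3cr1, so control and comparison cells shared this reporter allele. The ages of the animals were not given for these samples. The ME of several mice per group was pooled for sorting, and the sources used here do not say whether each library had its own pool. The p-values therefore measure only the spread between these libraries, which may be technical. An antibody against CD16/32, the proteins of Fcgr3 and Fcgr2b, was used to block Fc receptors before staining.

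As background, Fc receptors let a cell respond to antibody that has bound its antigen. In the mouse, the products of Fcgr1, Fcgr3 and Fcgr4 are activating IgG receptors that signal through the ITAM of the FcRγ chain encoded by Fcer1g, and that chain recruits the kinase Syk. Fcgr2b encodes the inhibitory IgG receptor, whose ITIM recruits the phosphatase SHIP-1 (Inpp5d), so the balance between Fcgr2b and the activating receptors sets how strongly a phagocyte answers immune complexes. Fcgrt, together with B2m, forms the receptor that recycles IgG and albumin. Fcer2a encodes CD23, best known from B cells, and Pigr carries dimeric IgA across epithelium. Pirb is an ITIM receptor for MHC class I rather than for antibody, and Fcrls is an Fc receptor-like gene of macrophages and microglia without an established antibody ligand.

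The activating receptors and their signalling chain were lower in CX3CR1- cells, while Fcer2a and Pigr were higher. A gene was called when its log2 fold change (CX3CR1- minus CX3CR1+, limma on log2 of the normalized value plus 1) was at least 1 in size with a Benjamini-Hochberg adjusted p of at most 0.05 over 17812 tested genes. By this rule 4 of the 10 genes were called lower, against 8.15% of all tested genes, and 2 were called higher, against 12.2%. The remaining 4 genes, Fcgr2b, Fcgrt, Fcrls and Pirb, were not called. All 3 CX3CR1- values lay below all 3 CX3CR1+ values for 6 of the 10 genes (19.8% of all tested genes), above them for 2 (20.3%), and the groups overlapped for 2. The median log2 fold change was -0.70 over the 10 genes and -0.0035 over all tested genes.

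**Figure D1:**
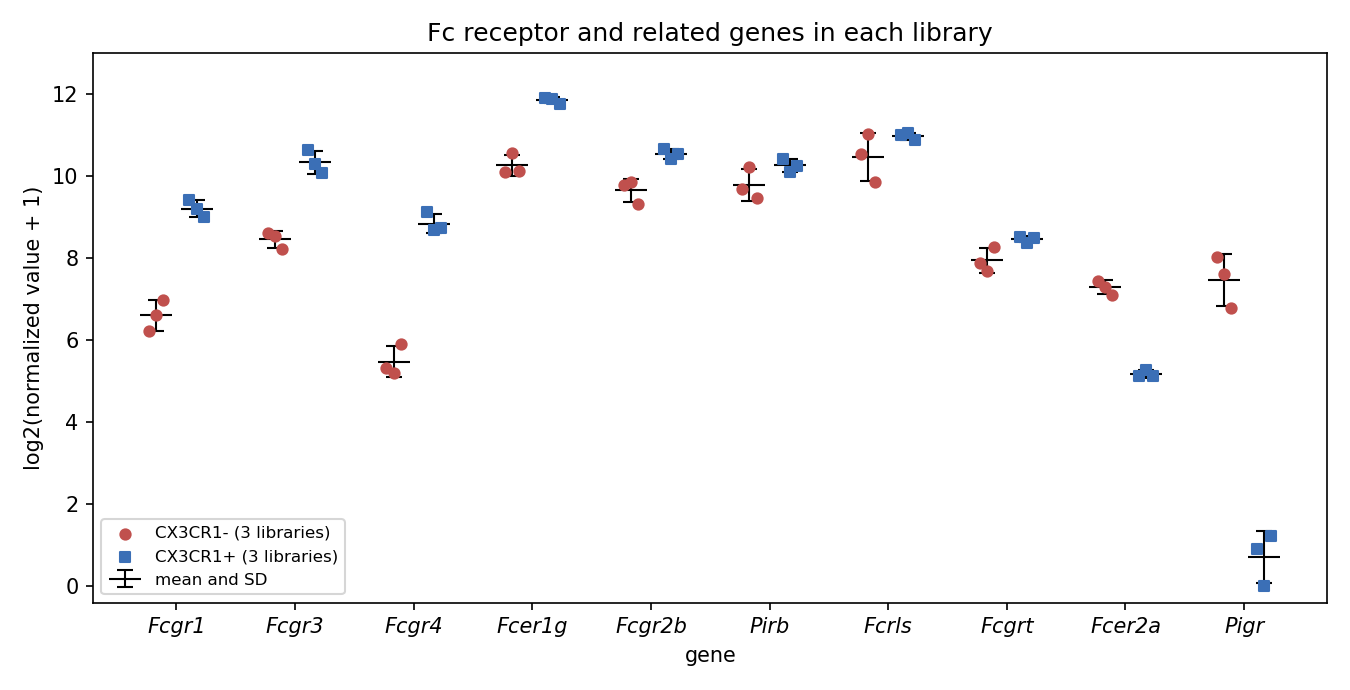
Normalized values of the 10 genes in each library, as log2 of the value plus 1 (y axis), with CX3CR1- libraries as circles and CX3CR1+ libraries as squares, and black marks for the mean and SD of 3 libraries. The groups are far apart for Fcgr1, Fcgr3, Fcgr4 and Fcer1g (CX3CR1+ higher) and for Fcer2a and Pigr (CX3CR1- higher), and overlap for Pirb and Fcrls.

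The libraries differed in make-up between the groups, while their depths overlapped. Between 5346391 and 17616596 reads per library could be estimated from the step between low values, and the normalized value that 3 reads would give ranged from 1.39 to 5.36. Mitochondrial genes held 51.7 ± 3.76% (SD, n = 3) of the summed values in CX3CR1- libraries and 19.6 ± 1.55% (SD, n = 3) in CX3CR1+ libraries. The sample labels call both populations dendritic cells. All 10 macrophage markers examined, among them Cx3cr1 on which the cells were sorted, were called lower in CX3CR1- cells, with summed levels of 8352 to 9215 against 40090 to 44876, whereas all 8 conventional dendritic cell markers were called higher, with sums of 3842 to 4146 against 205 to 244. The label thus had little marker signal behind it in the CX3CR1+ libraries, where Btla was at or under the value of 3 reads. The study itself takes both populations to be resident macrophages, because both stained for IBA-1. In its flow cytometry most CX3CR1- cells carried CD11b protein, and only a very small part carried CD11c or CD103. The sums of 10 epithelial markers were 16197 to 27620 in CX3CR1- and 31.5 to 58.1 in CX3CR1+ libraries, and those of 8 B cell markers were 977 to 1318 and 164 to 177. Fewer cells of a type and less RNA per cell cannot be told apart in bulk RNA, and the part of these cell types in the differences reported here was not tested. Cx3cr1 itself followed the labels, at 23.2, 18.9 and 28.5 in the CX3CR1- and 371, 380.4 and 347 in the CX3CR1+ libraries.

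On GRCm38, Fcgr2b (chr1:170958617-170976547, minus strand), Fcgr4 (chr1:171018920-171029761, plus strand), Fcgr3 (chr1:171051174-171064935, minus strand) and Fcer1g (chr1:171229572-171234365, minus strand) are neighbours on chromosome 1, and Fcgr1 lies alone on chr3:96282909-96293969 (minus strand). The upstream regions of the 3 activating receptors are shown because these genes moved together, and that of Fcgr2b because it lies in the same cluster and was not called. Each is 250 bases that end just before the RefSeq start site on GRCm38.p6, written 5′ to 3′ on the strand of the gene. Capitals mark GAGGAA, a core that the macrophage factor PU.1 binds, or its reverse complement TTCCTC, and the interferon-gamma activated site TTCNNNGAA. The regions are chr3:96293970-96294219 for Fcgr1, chr1:171059404-171059653 for Fcgr3, chr1:171018676-171018925 for Fcgr4 and chr1:170976072-170976321 for Fcgr2b.
Fcgr1 upstream region: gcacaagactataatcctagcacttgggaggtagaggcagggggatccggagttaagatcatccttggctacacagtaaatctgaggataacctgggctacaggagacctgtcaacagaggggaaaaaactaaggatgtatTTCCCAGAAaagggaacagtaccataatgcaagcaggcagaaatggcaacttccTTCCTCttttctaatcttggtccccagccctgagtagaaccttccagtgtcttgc
Fcgr3 upstream region: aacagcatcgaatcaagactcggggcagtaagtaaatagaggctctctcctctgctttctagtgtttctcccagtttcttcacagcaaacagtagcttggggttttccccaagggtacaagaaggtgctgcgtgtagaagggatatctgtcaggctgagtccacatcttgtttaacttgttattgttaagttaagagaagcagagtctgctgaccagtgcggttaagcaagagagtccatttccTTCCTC
Fcgr4 upstream region: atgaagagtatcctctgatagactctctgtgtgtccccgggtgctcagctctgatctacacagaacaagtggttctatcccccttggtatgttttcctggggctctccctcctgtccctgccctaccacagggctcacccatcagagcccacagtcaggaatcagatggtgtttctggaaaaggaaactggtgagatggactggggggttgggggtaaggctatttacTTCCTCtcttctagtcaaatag
Fcgr2b upstream region: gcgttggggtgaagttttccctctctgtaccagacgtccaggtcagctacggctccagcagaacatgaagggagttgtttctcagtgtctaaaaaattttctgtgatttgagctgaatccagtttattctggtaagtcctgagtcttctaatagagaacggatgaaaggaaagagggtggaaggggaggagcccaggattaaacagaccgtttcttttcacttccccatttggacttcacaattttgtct
The PU.1 core letters stood within 55 bases of the start site in Fcgr1, Fcgr3 and Fcgr4, each time on the opposite strand. They started 55, 6 and 22 bases before it. Measured from another RefSeq start of Fcgr3, whose region is not shown, they started 15 bases before. Fcgr1 also held a match to the interferon-gamma activated site 109 bases before its start. The motifs did not follow the calls over the whole set. In the full window to 50 bases past the start, Pirb held 3 matches to the PU.1 core and Fcrls held 1, although neither gene was called, and Pigr, which was called higher, held 1 match to the interferon-gamma activated site. Fcgr2b, Fcer1g, Fcgrt and Fcer2a held neither motif, and Fcer1g was called lower. Searched on both strands, GAGGAA occurred in 28.3% and TTCNNNGAA in 8.30% of 32851 RefSeq promoter windows of the same length, and the 2 motifs did not overlap in the regions shown. The regions shown for Fcgr3 and Fcgr2b lie wholly inside these genes as GENCODE draws them. A match of letters is a description of the sequence, not a measured binding site.

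Among the activating receptors, Fcgr4 differed most. Its normalized values were 38.6, 35.8 and 58.8 in the CX3CR1- libraries and 554.6, 410.1 and 422.1 in the CX3CR1+ libraries. Every CX3CR1+ library was thus several times above every CX3CR1- library, and the ratio of the means was 10.4 with a log2 fold change of -3.37 ± 0.27 (SE, n = 3 per group, adjusted p = 2.0e-05, limma). Fcgr4 encodes a receptor for IgG2a and IgG2b of monocytes, macrophages and neutrophils.

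Fcgr1, the high-affinity IgG receptor CD64 that is widely used to tell macrophages from dendritic cells, measured 74.1, 96.6 and 125.6 in CX3CR1- and 683.6, 583.2 and 511.3 in CX3CR1+ libraries. The groups did not overlap, and the means differed 6.00-fold (log2 fold change -2.60 ± 0.25, SE, adjusted p = 5.4e-05, limma, n = 3 per group). Fcgr3, the low-affinity receptor CD16, had values of 389.5, 372.8 and 299 in CX3CR1- against 1586, 1257 and 1071 in CX3CR1+ libraries. Its mean was 3.69-fold lower in CX3CR1- cells (log2 fold change -1.87 ± 0.20, SE, adjusted p = 1.2e-04, limma, n = 3 per group). Its groups did not overlap either.

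Fcer1g, the chain through which these receptors signal, had the highest level of the set per kilobase of transcript in every library. Values of 1089.9, 1507 and 1121 were measured in CX3CR1- and 3812, 3761 and 3482 in CX3CR1+ libraries, with no overlap between the groups. The signalling chain was 2.97-fold lower in CX3CR1- cells (log2 fold change -1.59 ± 0.17, SE, adjusted p = 8.8e-05, limma, n = 3 per group), the smallest of the 4 differences called lower. Of the 10 macrophage markers, all of which were called lower, the median log2 fold change was -2.41, so that Fcgr1 and Fcgr4 lay beyond this median and Fcgr3 and Fcer1g short of it.

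The inhibitory receptor Fcgr2b was lower in CX3CR1- cells too, but by less than the fold threshold. It measured 884, 919 and 641 in CX3CR1- and 1614, 1371 and 1475 in CX3CR1+ libraries. The groups did not overlap and the adjusted p was 0.0060, yet the log2 fold change of -0.88 ± 0.18 (SE, limma, n = 3 per group) corresponds to a ratio of means of 1.83, and the gene was not called. The adjusted p exceeded the threshold in 2 of 16 other processings, at 0.056 after quantile normalization and 0.051 without the intensity trend.

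**Figure D2:**
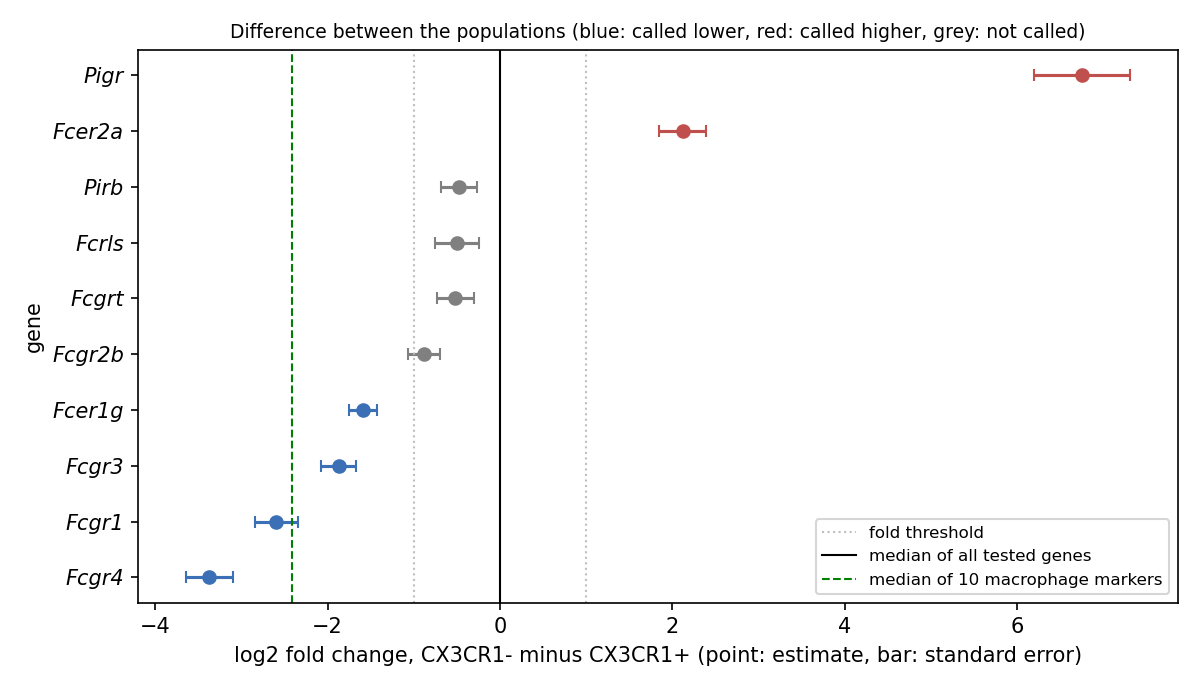
Log2 fold change of each gene (x axis, CX3CR1- minus CX3CR1+), with points for the estimate of limma and bars for its standard error. Fcgr4, Fcgr1, Fcgr3 and Fcer1g (blue) lie at -3.37 to -1.59, Fcer2a and Pigr (red) at 2.12 and 6.75, and the 4 genes in grey between -0.88 and -0.47, with dotted lines at the fold threshold, a black line at the median of all tested genes and a dashed line at the median of the macrophage markers.

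Ratios inside a library do not depend on a scale factor that all its genes share, while a factor specific to a gene would remain. The inhibitory and activating receptors were therefore also compared within each library. Fcgr2b over Fcgr3 was 2.27, 2.46 and 2.14 in CX3CR1- and 1.02, 1.09 and 1.38 in CX3CR1+ libraries. Fcgr2b over the summed values of Fcgr1, Fcgr3 and Fcgr4 was 1.76, 1.82 and 1.33 against 0.572, 0.609 and 0.736. Both ratios were higher in each CX3CR1- than in each CX3CR1+ library, the latter by 2.55-fold (1.35 on the log2 scale). These values were not divided by transcript length, so only their difference between libraries can be read. In a comparison added after the data were seen, with each gene per kilobase of its longest coding transcript, Fcgr2b was 0.716, 0.757 and 0.570 of the summed activating receptors in CX3CR1- and 0.242, 0.260 and 0.313 in CX3CR1+ libraries (difference 1.32 on the log2 scale, exact permutation p = 0.1). By this measure the inhibitory receptor was below the activating receptors together in all 6 libraries, and less far below them in CX3CR1- cells. Whether it lies below them depends on the length used. Fcgr2b has 4 coding transcripts, and which of them these cells express was not examined. Of the 8 B cell markers, 7 were called higher in CX3CR1- cells and 1 was not called. The part of B cells in these ratios was not tested.

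The signalling chain was set against its receptors in the same way. Together, Fcgr1, Fcgr3 and Fcgr4 amounted to 497 ± 11.7 in CX3CR1- and 2360 ± 421 (both SD, n = 3) in CX3CR1+ libraries, 4.75-fold apart. Fcer1g per summed receptor was 2.17, 2.98 and 2.32 in CX3CR1- and 1.35, 1.67 and 1.74 in CX3CR1+ libraries, a difference of 0.64 on the log2 scale. Relative to Csf1r, the receptor for the macrophage growth factor CSF-1, Fcer1g was 0.708, 0.749 and 0.620 against 0.409, 0.377 and 0.379. No ratio overlapped between the groups, and each of the 5 ratios tested gave p = 0.1 in an exact two-sided permutation test (adjusted p = 0.1), the smallest that 3 libraries against 3 allow.

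**Figure D3:**
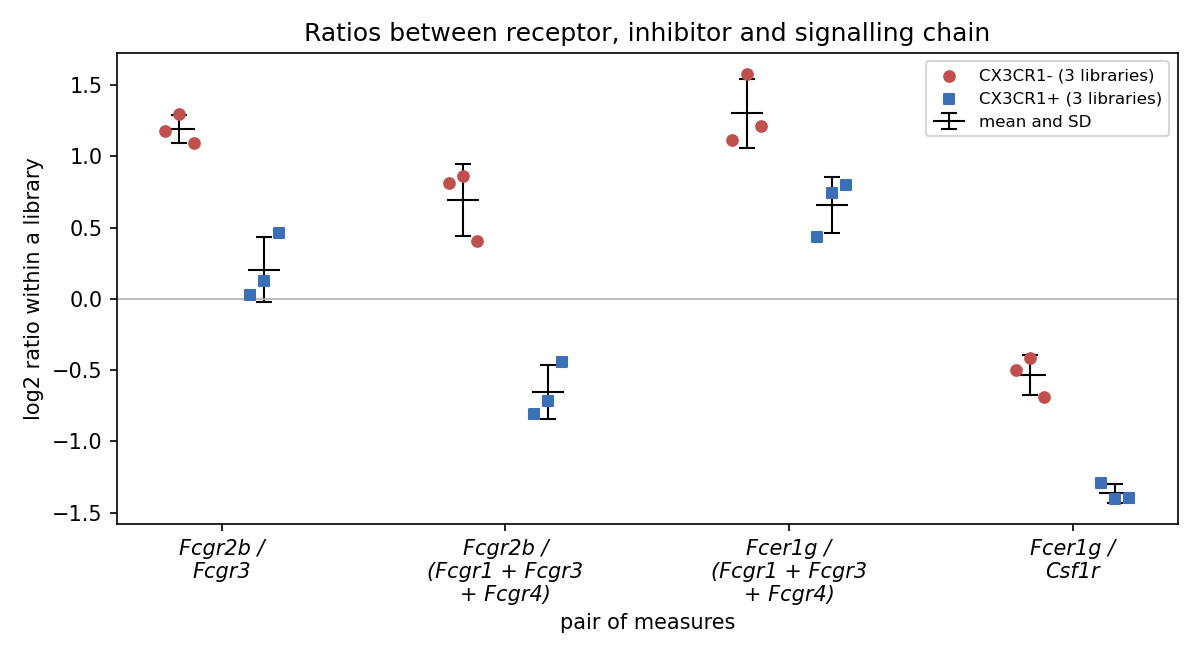
Log2 ratio of 2 measures inside each library (y axis) for 4 pairs (x axis), with CX3CR1- libraries as circles, CX3CR1+ libraries as squares and black marks for the mean and SD of 3 libraries. All CX3CR1- points lie above all CX3CR1+ points in each pair. The values are not divided by transcript length, so the line at 0 does not mark equal levels of the genes.

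The composition of the activating receptors, counted per kilobase of the longest coding transcript, was compared as well. Fcgr3 made up 83.0, 80.8 and 69.9% of the activating receptors in CX3CR1- and 62.5, 62.8 and 59.8% in CX3CR1+ libraries. Fcgr4 accounted for 8.82, 8.31 and 14.8% against 23.4, 22.0 and 25.3%. Neither of these shares overlapped between the populations (exact permutation p = 0.1 each, adjusted p = 0.15 over 3 shares), while the share of Fcgr1 overlapped, at 8.21, 10.9 and 15.3% against 14.02, 15.2 and 14.9% (exact permutation p = 0.4, adjusted p = 0.4).

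Per kilobase of the longest coding transcript, levels of different genes can be set side by side, as far as that transcript is the one expressed. In CX3CR1+ cells the order was Fcer1g (5396 ± 260, normalized value per kilobase, SD, n = 3), Fcgr3 (969 ± 194), Fcrls (885 ± 51.0), Fcgr2b (419.5 ± 34.5), Fcgr4 (368 ± 63.8), Pirb (322 ± 35.9), Fcgr1 (229 ± 33.4), Fcgrt (199 ± 10.3), Fcer2a (15.6 ± 0.991) and Pigr (0.194 ± 0.178). Fcgr3 and Fcrls, Fcgr2b and Fcgr4, Fcgr4 and Pirb, and Fcgr1 and Fcgrt overlapped across libraries and cannot be ranked.

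In CX3CR1- cells Fcer1g again led (1815 ± 340, normalized value per kilobase, SD, n = 3), followed by Fcrls (657 ± 252), Fcgr3 (263 ± 35.8), Pirb (236 ± 66.2), Fcgr2b (229.8 ± 42.8), Fcgrt (141 ± 30.5), Fcer2a (69.7 ± 8.24), Pigr (48.7 ± 19.6), Fcgr1 (38.1 ± 9.98) and Fcgr4 (35.4 ± 10.02). Here Fcgr3, Pirb and Fcgr2b overlapped with their neighbours, as did Fcer2a, Pigr, Fcgr1 and Fcgr4. Fcgr4 thus lay above Fcgrt in CX3CR1+ cells, where Fcgr1 overlapped with Fcgrt. Fcgr1 and Fcgr4 had the lowest means of the set in CX3CR1- cells, below that of Fcer2a.

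Fcgr3 and Fcgr2b are similar genes, and the counting could have moved reads between them. Of the 31-base words in the annotated transcripts, 13.4% of those of Fcgr3 also occurred in Fcgr2b, and 4.15% of those of Fcgr2b in Fcgr3. The longest identical stretch in their coding sequences, shown because reads from it cannot be assigned by sequence, was 129 bases long and began at base 278 of the Fcgr2b and base 263 of the Fcgr3 coding sequence (GENCODE M21, GRCm38, exact match on the coding strand).
Fcgr2b and Fcgr3 shared coding stretch: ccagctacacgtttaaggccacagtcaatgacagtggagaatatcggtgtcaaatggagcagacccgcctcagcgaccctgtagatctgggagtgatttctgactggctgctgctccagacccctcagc
Fcgr2b also overlaps the antisense gene Gm38204, and Fcgrt overlaps Gm45669. The library kit does not keep the strand, so reads from these overlaps cannot be assigned. No 31-base word of Fcgr1, Fcer1g or Fcrls occurred in another gene.

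Fcer2a, which encodes the low-affinity IgE receptor CD23, was higher in CX3CR1- cells. Its values were 174, 157 and 137 in CX3CR1- and 33.7, 37.6 and 33.9 in CX3CR1+ libraries. The groups were well separated (4.45-fold, log2 fold change 2.12 ± 0.27, SE, adjusted p = 3.2e-04, limma, n = 3 per group), and in CX3CR1+ libraries the gene still lay above the value of 3 reads. Of the 8 B cell markers, 7 were called higher in CX3CR1- cells and Cd79b was not. Cd79a, a signalling chain of the B cell receptor, was at 150.3, 286 and 161 in CX3CR1- libraries. It was at 1.85, 0 and 1.42 in CX3CR1+ libraries, where B cell markers lay on both sides of Fcer2a. Cd79a was below Fcer2a in each of them, while Cd79b (45.7, 59.1 and 36.5) and Cd22 (97.4, 70.0 and 71.5) were above it. The part of B cells in the Fcer2a difference was not tested.

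Pigr separated the populations by the widest margin. It measured 259, 195 and 108.5 in CX3CR1- libraries and 0.883, 0 and 1.35 in CX3CR1+ libraries, all 3 of which lay at or under the value of 3 reads. Against the highest such value of the CX3CR1+ libraries, 4.25, the CX3CR1- mean of 187 was at least 44.1-fold higher (adjusted p = 2.1e-05, limma). All 10 epithelial markers were called higher in CX3CR1- cells as well, with a median log2 fold change of 6.23. Their sums were 27620, 25609 and 16197 in the 3 CX3CR1- libraries, mostly from Fabp2 (21160.6, 21000.5 and 12558.9). Krt8 and Krt20 were at or under the value of 3 reads in each CX3CR1+ library. The part of epithelial RNA in the Pigr difference was not tested.

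Partners of Pigr and Fcgrt were examined as a list of 10 genes, of which 9 were tested, 4 were called higher (12.2% of all tested genes) and 1 lower (8.15%) in CX3CR1- cells. The share called lower was thus near that of all genes. Called higher were Jchain, the joining chain of the polymeric IgA that Pigr carries (log2 fold change 7.0), and the vesicle transport genes Myo5b (6.11), Rab25 (2.96) and Rab11fip1 (2.48). B2m, the light chain of the neonatal receptor, was the gene called lower, at 10091, 9334 and 8542 in CX3CR1- and 22148, 21249 and 18860 in CX3CR1+ libraries (log2 fold change -1.15 ± 0.13, SE, adjusted p = 1.3e-04, limma, n = 3 per group). Jchain is also a plasma cell gene, and 3 of 5 plasma cell markers were called higher, with sums of 1141 to 3174 against 21.9 to 35.8. Rab25 was low, at 14.2, 43.5 and 9.69 in CX3CR1- and 2.07, 3.99 and 0 in CX3CR1+ libraries. The part of plasma cell and epithelial RNA in the 4 genes called higher was not tested.

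Fcgrt itself was not called. Its values were 236.5, 203.6 and 309 in CX3CR1- and 365.8, 331.8 and 360.4 in CX3CR1+ libraries. Although the groups did not overlap, the log2 fold change of -0.52 ± 0.22 (SE, limma, n = 3 per group) had an adjusted p of 0.12. Per B2m, Fcgrt was 0.0234, 0.0218 and 0.0362 in CX3CR1- and 0.0165, 0.0156 and 0.0191 in CX3CR1+ libraries, a difference of 0.64 on the log2 scale in the opposite direction to the level of Fcgrt (exact permutation p = 0.1).

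Fcrls and Pirb were abundant in both populations, and neither was called. Fcrls measured 1494, 2067 and 922 in CX3CR1- and 2042, 2108 and 1882 in CX3CR1+ libraries. A CX3CR1- library lay inside the CX3CR1+ range, and the spread was 38.3% of the mean in CX3CR1- against 5.77% in CX3CR1+ libraries (log2 fold change -0.50 ± 0.26, SE, adjusted p = 0.19, limma, n = 3 per group). Pirb stood at 818, 1189.6 and 706 in CX3CR1- and 1372, 1098 and 1221.5 in CX3CR1+ libraries, where again 1 CX3CR1- library lay inside the other range (log2 fold change -0.47 ± 0.21, SE, adjusted p = 0.14, limma, n = 3 per group). For both genes this was replicate 2, without which the adjusted p was 0.032 for Fcrls and 0.022 for Pirb, still short of the fold threshold. Without CX3CR1- replicate 3, the lowest of its group for both genes, the log2 fold change was -0.19 for Fcrls (adjusted p = 0.49, limma) and -0.31 for Pirb (adjusted p = 0.32, limma).

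The value of Pirb is uncertain, because 44.1% of its 31-base words occurred in other genes. The 6 genes that shared most of them were Pira-type relatives or gene models, each with 18.2 to 23.7% of the Pirb words. Genes that shared fewer were not examined. Gm14548 (log2 fold change 3.48), Lilra6 (4.93), Pira2 (2.98) and Gm15448 (2.54) were called higher in CX3CR1- cells, Gm15922 was not called at -2.41 (adjusted p = 0.11, limma), and Gm15925 was too low to test. Lilra6, as an example, was at 234, 286 and 80.3 in CX3CR1- and at 6.22, 2.38 and 6.84 in CX3CR1+ libraries. Summed with these 6 relatives, Pirb was 1550 ± 461 in CX3CR1- and 1317 ± 130 (both SD, n = 3) in CX3CR1+ libraries, so that the mean lay in the opposite direction to Pirb alone, without a difference beyond the spread (exact permutation p = 0.5).

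**Figure D4:**
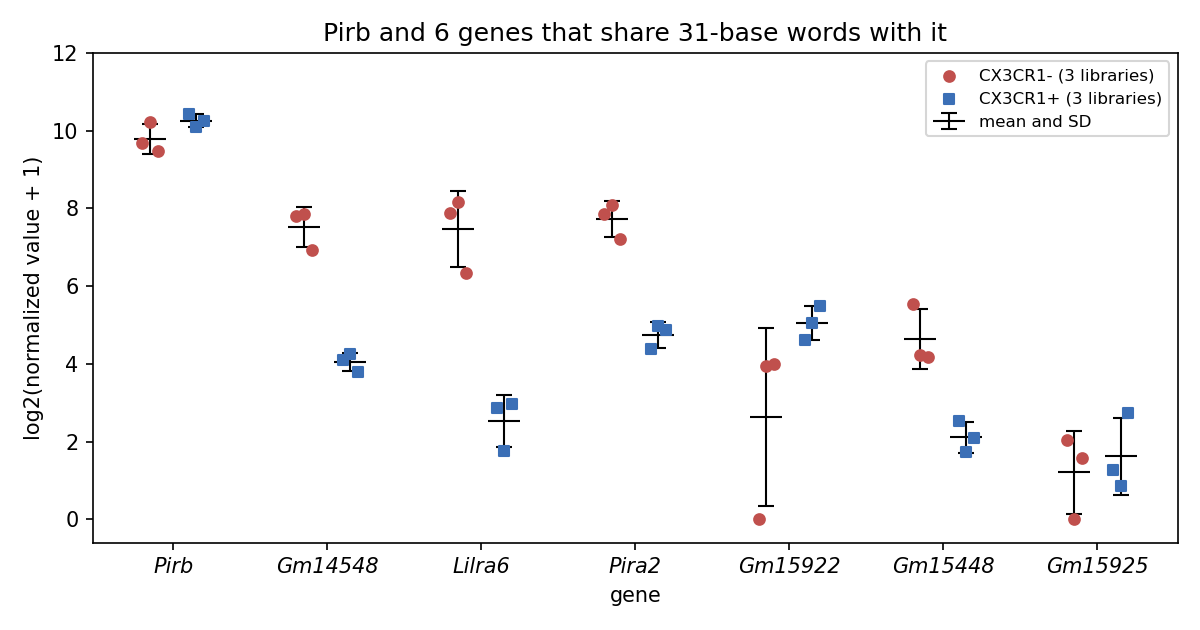
Normalized values of Pirb and 6 genes that share 31-base words with it, as log2 of the value plus 1 (y axis), for CX3CR1- (circles) and CX3CR1+ libraries (squares), with black marks for the mean and SD of 3 libraries. Pirb overlaps between the groups, Gm14548, Lilra6, Pira2 and Gm15448 are higher in each CX3CR1- library, and the Gm15922 points are lower, though not called.

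Other receptors of the paired immunoglobulin-like and leukocyte immunoglobulin-like families were split. Of the 4 tested under a unique symbol, Pira2 and Lilra6, already named as Pirb relatives, were called higher (12.2% of all tested genes). Lilra5 and Lilr4b were called lower (8.15%). Lilra5, an activating receptor, fell from 1062, 1201 and 952 in CX3CR1+ to 32.4, 17.9 and 95.7 in CX3CR1- libraries. Lilr4b, a close relative of the inhibitory receptor Lilrb4a, had a log2 fold change of -1.67. Lilrb4a was left out of the count because its symbol is listed more than once. Both of its entries were called lower, at -1.78 and -1.82. Of 6 tested genes among other Fc and Fc-like receptors, 4 were called higher in CX3CR1- cells (12.2% of all tested genes) and none lower (8.15%). These were the B cell genes Fcrl1 (log2 fold change 2.39) and Fcrl5 (1.99), Fcrla (at least 17.4-fold higher) and Fcmr, the receptor for IgM (at least 21.7-fold higher). Trim21, the cytosolic IgG receptor, and Cd247 were not called. Ms4a2, the beta chain of the high-affinity IgE receptor, was too low to test in either population, at 2.76 to 5.34 and 2.13 to 6.81.

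Downstream of the activating receptors, 31 of 32 listed genes were tested, of which 10 were called lower (8.15% of all tested genes), 3 higher (12.2% of all tested genes) and 18 not called, with a median log2 fold change of -0.54. The genes called lower included Cybb, the catalytic subunit of the phagocyte NADPH oxidase (-2.23), Pik3ap1 (-2.25) and Gab2 (-1.51), which link receptors to phosphoinositide 3-kinase, the adaptor Lcp2 (-1.30) and Card9 (-1.65). The share called higher was below that of all genes and held the Src-family kinases Fgr (3.61) and Fyn (2.59) and the adaptor Grap2 (1.89). Lyn, which can serve activating and inhibitory receptors alike, was not called at -0.91 ± 0.15 (SE, adjusted p = 0.0017, limma). Syk, the kinase that binds the phosphorylated ITAM, measured 825, 963 and 639 in CX3CR1- and 797, 879 and 1187 in CX3CR1+ libraries, which overlapped (log2 fold change -0.24 ± 0.22, SE, adjusted p = 0.48, limma).

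On the inhibitory side, 12 genes were tested, of which 1 was called lower and 3 higher, with a median log2 fold change of -0.061. The share called lower was near the 8.15% of all tested genes, and 12.2% of these were called higher. Inpp5d, which encodes the phosphatase SHIP-1, was 600.3, 477 and 525 in CX3CR1- against 1161, 1264 and 1335 in CX3CR1+ libraries (log2 fold change -1.23 ± 0.17, SE, adjusted p = 5.0e-04, limma). Its direction was that of Fcgr2b. The genes called higher were the adaptor Dok2 (2.44), the ubiquitin ligase Cblb (1.33) and the phosphatase Ptpn22 (1.18), all of which are also known from lymphocytes. Ptpn6, which encodes SHP-1 and binds the ITIMs of Pirb, was not called (log2 fold change -0.25 ± 0.40, SE, adjusted p = 0.71, limma).

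**Figure D5:**
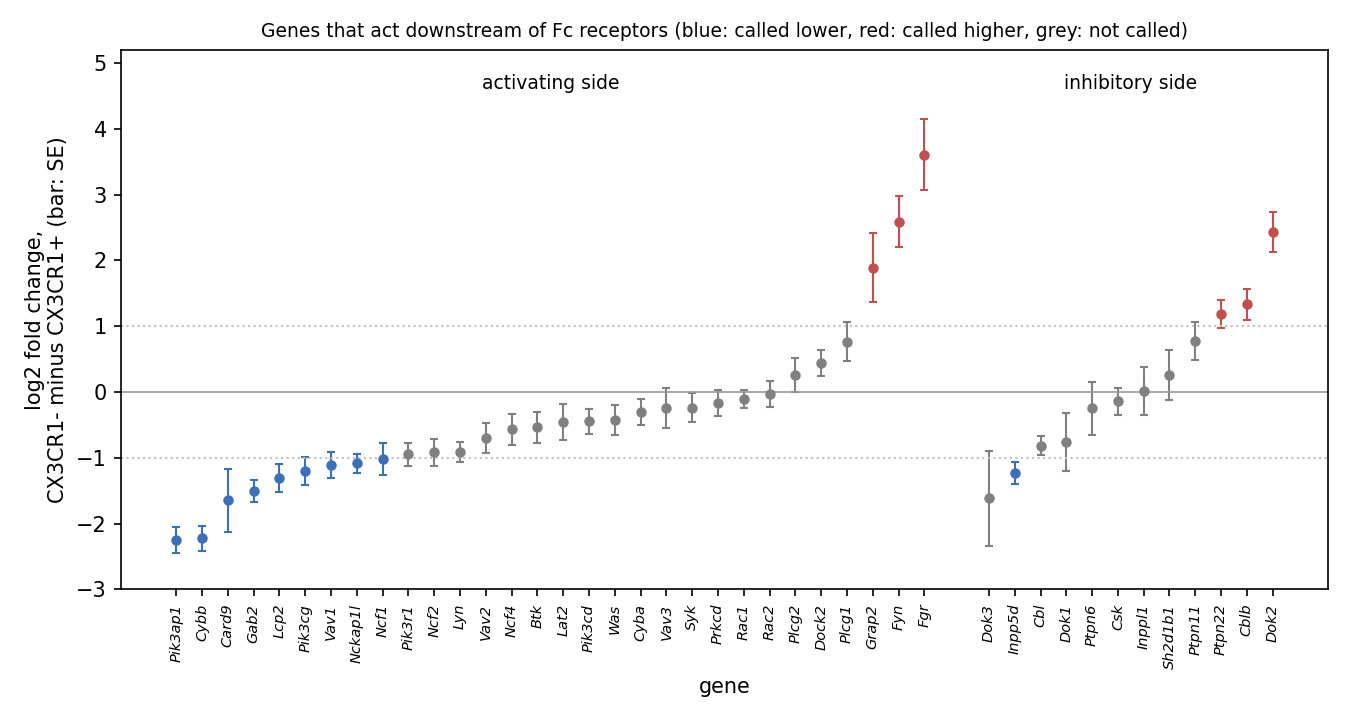
Log2 fold change (y axis, CX3CR1- minus CX3CR1+) of tested genes that act downstream of Fc receptors, in the activating (left) and the inhibitory list (right), with points for the estimate and bars for the standard error. In the activating list 9 of the 10 genes called lower are drawn (blue), with 3 called higher (red) and 18 not called (grey), and in the inhibitory list 1 is called lower, 3 higher and 8 not called.

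For each of the 6 called genes, the tested genes with the most similar profile across the 6 libraries were identified by the root mean square difference of centred log2 values. Fcer1g ran closest to Ly86 (difference 0.063) and Ctss (0.095), and Fcgr1 to Nuak1 (0.16) and Cd72 (0.17). Nearest to Fcgr3 were Gm44086 (0.11) and Mitf (0.13), and nearest to Fcgr4 were Slco2b1 (0.17) and Apoe (0.18). Fcer2a was most similar to Ahnak (0.094) and to Itgax (0.11), which encodes the integrin CD11c of dendritic cells and some macrophages. Pigr had Serpinb1a (0.25) and Clic5 (0.30) as its nearest genes. With 3 libraries per group these likenesses mostly reflect the size of the group difference.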

How the data were processed

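Bulk RNA-seq of 3 CX3CR1- and 3 CX3CR1+ libraries was analysed, grouped by the sample titles. The authors pseudoaligned 75 bp single reads with Kallisto (mm10, GENCODE M16), brought the estimated counts into R with tximport at gene level and scaled them with DESeq2. The deposited values are thus a normalized signal and not counts. A count test was not run, because 42.5 to 43.8% of values above 0 were whole multiples of a library's smallest step (tolerance 0.01). Genes with a mean of at least 10 were tested with limma 3.58.1 in R 4.3.3 (lmFit, eBayes with intensity trend, two-sided) on log2(value + 1), a scale that understates fold changes of low genes. The fits were tested on simulated data. Single ratios used exact permutation tests, whose smallest p is 0.1. Values at or under 3 reads per library were treated as not measurable, and folds against them are lower bounds, which cover counting error only. Positions and 31-base words come from GENCODE M21 (GRCm38), and promoters from RefSeq (GRCm38.p6), in which all 10 genes were matched. Of the gene symbols, 23 are listed more than once. Named are all 10 genes, the genes of the marker and pathway lists, and the 2 nearest tested genes of each called gene. Genes and lists were chosen with earlier results of these data known. The 16 alternatives covered pseudocounts, filters, scalings, the variance model, a block and each library left out. Marker genes absent from the table were not analysed here, and some list genes that enter the counts are not reported singly here.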

Additional observations from a re-analysis of the deposited data

How the results depend on the processing

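Each of the 10 genes kept its direction and its side of the call in all 16 alternatives, so that 4 were called lower and 2 higher in each. The median over all tested genes, within 0.1 of 0 otherwise, shifted to -0.15 on the log2 scale with quantile normalization and to 0.16 with equal totals without mitochondrial genes. Under quantile normalization the log2 fold change was -1.15 for Fcer1g, -0.54 for Fcgr2b, -0.094 for Fcrls and -0.14 for Pirb, and relative to that median Fcrls and Pirb lay above 0. The fold change of Pigr, fitted against values near 0, ranged from 4.12 with a pseudocount of 10 to 7.35 with a pseudocount of 0.5. Without CX3CR1- replicate 3 the adjusted p of Fcgrt was 0.038, and its log2 fold change of -0.68 stayed under the threshold. Over all genes, 2177 were called higher and 1451 lower, against 1232 and 1181 with a mean of at least 50 as the filter, which tests fewer genes. The library names carry no pairing between the populations. A replicate block of adjacent library numbers, whose deviations correlated at 0.10, 0.038 and 0.014, called 2165 genes higher and 1445 lower and changed no call among the 10 genes. Depth limits Pigr and the lowest list genes in the CX3CR1+ libraries, which cannot be told from 0.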
